A study of Mus musculus with 6 samples.

Results

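10 genes of the neural immunoglobulin adhesion family were followed across cultures of the mouse glioma line GL261: Cntn1, Cntn2, Ntm, Lsamp, Opcml, Negr1, Ncam1, Ncam2, Nrcam and L1cam. They are 10 of the 54446 genes listed in the deposited matrices and were found there by symbol. The set was proposed from the difference between the 2 kinds of culture, so for these genes that difference is described below without a test. GL261 is an established mouse glioma cell line. Its 2 libraries came from cells kept in a differentiation medium with FCS (fetal calf serum), and 4 further libraries came from GL261-GSCs, cells derived from GL261, labelled glioblastoma stem cells and kept in a defined medium for such cells. Gene expression was read from the 5' end of transcripts by droplet single-cell RNA-seq, and no drug, transgene or genetic change is named for either group. Both groups rest on 1 cell line, and the labels do not say whether the libraries of a group came from separate cultures, so the p-values below measure the spread between these libraries.

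Immunoglobulin adhesion molecules are cell surface proteins that bind each other, or the same molecule on a neighbouring cell, through chains of immunoglobulin domains. In the nervous system they guide axons, hold myelin to axons and help immature neural cells to migrate. Contactins (Cntn1, Cntn2) and IgLONs (Ntm, Lsamp, Opcml, Negr1) are tied to the membrane by a lipid anchor and signal through partners. NCAM proteins (Ncam1, Ncam2) and the L1 family (Nrcam, L1cam) mostly span the membrane and bind the cytoskeleton and growth factor receptors.

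The called cells numbered 4264 to 7275 per library and held 33320530 to 79472306 UMIs, the unique molecular identifiers that count captured RNA molecules. Depth, as the median UMIs of a cell, was 15478 and 13652 for the GL261 libraries and 15375, 11890, 10638 and 6670 for GL261-GSCs replicates 1 to 4. GL261-GSCs replicates 3 and 4 stood apart from 1 and 2, although the labels name no such division: chi-square over its degrees of freedom, on the summed counts of 2 libraries, was 49.4 between replicates 3 and 4, 77.2 between 1 and 2, and 163 to 240 across. The RNA Malat1, which stays in the nucleus, was at 2854, 3330, 4540 and 7445 CPM (UMIs scaled to the depth of the library) in GL261-GSCs replicates 1 to 4. In the GL261 libraries Malat1 was at 4665 and 4723 CPM, above GL261-GSCs replicates 1 to 3. Called barcodes shared by 2 libraries numbered 32 to 59, where chance gives 26.1 to 57.9. Oligodendrocyte precursor markers (Pdgfra, Cspg4, Olig1, Olig2 and Sox10) summed to 505 to 563 CPM in GL261 and 1291 to 2300 CPM in GL261-GSCs. Olig1, Olig2 and Pdgfra were each at most 7.97 CPM in GL261 and at least 56.6 CPM in GL261-GSCs, whereas the groups overlapped for Sox10 (331 and 358 against 304 to 382 CPM) and Cspg4 (164 and 200 against 67.2 to 209 CPM). Rbfox3 of neurons, Aqp4 of astrocytes and Cldn5 of endothelium had no UMI in the called cells of any library. The other neuron markers summed to 85.7 to 92.8 CPM in GL261 and 38.1 to 83.9 CPM in GL261-GSCs, most of it Tubb3 or Syt1. Astrocyte markers summed to 7.85 to 8.35 CPM against 0.0414 to 0.247, microglia markers to 13.0 to 13.2 against 0.275 to 0.814, fibroblast markers to 252 to 287 against 11.03 to 26.8, endothelial markers to 0.895 to 1.61 against 0.334 to 0.888, and oligodendrocyte markers to 172 to 268 against 163 to 237 CPM. Single genes made up most of 3 of these sums in GL261. They were Aldh1l1 of astrocytes (7.11 and 6.50 CPM), Csf1r of microglia (12.9 and 12.6) and Col1a1 of fibroblasts (247 and 282). Tmem119 of microglia and Dcn of fibroblasts overlapped between the groups, and Col1a2 of fibroblasts had no UMI in GL261. The part of other cell types in the values below was not tested.

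The promoters of 3 genes with strongly contrasting levels are shown first. Cntn1 and Ncam2 had no UMI in GL261 cells, and Ntm was almost absent from GL261-GSCs. Each sequence is from RefSeq (GRCm38.p6) and runs from 250 bases before a transcription start to 50 after it, in the direction of the gene, with every CG dinucleotide in capitals. The Cntn1 window is the most upstream of 3 listed starts (chr15:92050915-92051214, plus strand), that of Ncam2 is its only one (chr16:81200447-81200746, plus strand), and both listed starts of Ntm are given (chr9:29413403-29413702 and chr9:29412636-29412935, minus strand; both lie inside the GENCODE span of the gene given below).
Cntn1: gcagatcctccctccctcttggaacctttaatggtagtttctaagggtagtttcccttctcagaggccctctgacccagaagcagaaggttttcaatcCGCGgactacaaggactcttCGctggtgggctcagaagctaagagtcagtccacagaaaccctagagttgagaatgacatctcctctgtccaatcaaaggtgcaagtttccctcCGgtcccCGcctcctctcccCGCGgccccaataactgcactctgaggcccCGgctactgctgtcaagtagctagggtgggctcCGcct
Ncam2: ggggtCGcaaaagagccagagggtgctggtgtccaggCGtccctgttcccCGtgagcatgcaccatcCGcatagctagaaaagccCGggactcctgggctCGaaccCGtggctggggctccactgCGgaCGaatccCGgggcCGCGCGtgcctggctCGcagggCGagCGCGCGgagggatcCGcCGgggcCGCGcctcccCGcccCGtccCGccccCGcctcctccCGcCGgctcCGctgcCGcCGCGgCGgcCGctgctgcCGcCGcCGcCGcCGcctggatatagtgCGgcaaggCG
Ntm upstream start: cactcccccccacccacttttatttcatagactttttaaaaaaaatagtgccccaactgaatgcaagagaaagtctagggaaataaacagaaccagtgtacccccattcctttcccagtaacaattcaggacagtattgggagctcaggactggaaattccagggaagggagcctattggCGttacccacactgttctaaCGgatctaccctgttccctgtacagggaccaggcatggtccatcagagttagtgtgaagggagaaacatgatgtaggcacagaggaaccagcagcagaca
Ntm downstream start: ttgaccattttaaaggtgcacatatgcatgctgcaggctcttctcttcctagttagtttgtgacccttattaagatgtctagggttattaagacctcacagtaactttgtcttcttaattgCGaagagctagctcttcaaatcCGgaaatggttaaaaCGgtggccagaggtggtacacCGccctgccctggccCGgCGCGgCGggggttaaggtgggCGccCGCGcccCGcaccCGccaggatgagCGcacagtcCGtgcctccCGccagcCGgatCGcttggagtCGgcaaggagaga
CG dinucleotides numbered 9 for Cntn1, 41 for Ncam2, and 2 and 19 for the upstream and downstream starts of Ntm. The median over the most upstream promoters of 27025 genes was 7. Of these promoters 3.33% held more than 40 and 23.9% held at most 2, so the Ncam2 and upstream Ntm windows lie toward opposite ends. A RefSeq promoter was matched for 9 of the 10 genes, all but Ncam1, and 8 of the 9 lay above the median in CG. The E-box CANNTG, the core bound by basic helix-loop-helix factors and the same on both strands, was found in 6 of the 9 against 72.1% of all promoters. The SOX core AACAAT, searched on both strands, was found in 1 of the 9, the upstream window of Ntm, against 10.9% of all promoters. These counts cover the most upstream start of each gene, and a further listed start of Cntn1 (chr15:92127878-92128177) holds 2 SOX cores. Which start the RNA came from was not analysed here.

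Long genes were common in the set. The gene spans ran from 33830 bases for Cntn2 to 2197319 bases for Lsamp, with a median of 361461 bases against 23483 for the 13382 protein-coding genes tested. Spans over 100000 bases were found for 8 of the 10 genes and for 13.1% of the protein-coding genes tested. Opcml (chr9:27790775-28925410, plus strand) and Ntm (chr9:28994750-29963141, minus strand) are neighbours, 69339 bases apart with 0 protein-coding genes between them (GENCODE M21, GRCm38), and they went in opposite directions between the cultures.

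Cntn1 was higher in every GL261-GSCs library than in GL261. It encodes contactin 1, which binds the receptor phosphatase Ptprz1 and takes part in myelination (chr15:92051165-92341967, plus strand). Its level was 66.5, 145, 309 and 380 CPM in GL261-GSCs replicates 1 to 4, from 4388, 10477, 24717 and 13839 UMIs, with no UMI in the called cells of either GL261 library. The GL261-GSCs mean was 225 ± 145 CPM (SD, n = 4), and over pooled cells the level was at least 8936-fold higher than the 3 UMIs that a count of 0 allows over both GL261 libraries. Within GL261-GSCs the order from lowest to highest was replicates 1, 2, 3 and 4, a range of 5.71-fold. Cntn2, the contactin of axons and of myelin near the node of Ranvier (chr1:132509427-132543256, minus strand), was close to absent. It had 6 UMIs in each GL261 library and 6, 2, 7 and 15 in GL261-GSCs replicates 1 to 4, or 0.0889 and 0.0994 CPM against 0.0910, 0.0276, 0.0875 and 0.412 CPM. The Cntn2 ranges overlapped, and the gene did not pass the filter on low counts.

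The IgLONs divided between the cultures. Ntm, neurotrimin, was high in GL261, at 285 and 303 CPM in the 2 GL261 libraries. In GL261-GSCs replicates 1 to 4 it was at 0.531, 0.110, 0.163 and 0.0549 CPM, from 35, 8, 13 and 2 UMIs. The GL261 mean of 294 ± 13.2 CPM (SD, n = 2) was 1370-fold above the GL261-GSCs mean, or 2690-fold without replicate 1, which holds 35 of the 58 UMIs, and the libraries did not overlap. Lsamp, the limbic system associated membrane protein (chr16:39984361-42181679, plus strand), showed the reverse: no UMI in GL261 cells, and 2.15, 11.9, 19.2 and 41.8 CPM in GL261-GSCs replicates 1 to 4. Its pooled level was at least 678-fold above the 3 UMI limit of GL261. Opcml, an IgLON first named for opioid binding, was at 0.341 and 0.911 CPM in GL261 and 2.65, 1.21, 13.1 and 20.4 CPM in GL261-GSCs. Its means of 0.626 ± 0.403 (SD, n = 2) and 9.33 ± 9.07 CPM (SD, n = 4) differ 14.9-fold, or 9.02-fold without replicate 4, and GL261-GSCs replicate 2 lay near the higher GL261 library. Negr1, the fourth IgLON listed (chr3:156561794-157316445, plus strand), had no UMI in the called cells of any library, where 3 UMIs would be 0.0375 to 0.0824 CPM.

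Both NCAM genes were higher in all 4 GL261-GSCs libraries, but with an uneven spread. Ncam1, the neural cell adhesion molecule that can carry polysialic acid (chr9:49502136-49798925, minus strand), was at 0.518 and 0.464 CPM in GL261. GL261-GSCs replicates 1 to 4 had 1.41, 1.12, 80.4 and 119.6 CPM, so the rise over GL261 was almost all in replicates 3 and 4. Their mean was 79.1-fold that of replicates 1 and 2, which themselves were 2.57-fold above GL261. Without replicates 3 and 4, an alternative chosen after seeing the data, the fitted difference of Ncam1 from GL261 was 1.36 on the log2 scale against 6.68 with all libraries. Ncam2, a relative studied in olfactory axons (chr16:81200697-81626828, plus strand), had no UMI in GL261 cells (0.0583 CPM in the free RNA of replicate 1) and 10.1, 13.2, 73.0 and 82.4 CPM in GL261-GSCs. Pooled, it was at least 1750-fold above the 3 UMI limit.

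L1cam and Nrcam, the L1 family genes of the set, were lower in every GL261-GSCs library. L1cam, a receptor of axon growth that is shed by proteases and linked to cell migration (chrX:73853778-73896105, minus strand), was at 220 and 251 CPM in GL261 and at 8.79, 4.57, 7.45 and 12.1 CPM in GL261-GSCs replicates 1 to 4. The means were 236 ± 21.6 (SD, n = 2) and 8.24 ± 3.14 CPM (SD, n = 4), 28.6-fold apart with no overlap. Nrcam, which gathers at nodes of Ranvier (chr12:44328885-44601964, plus strand), was at 24.8 and 25.3 CPM in GL261 and 9.76, 17.0, 13.4 and 13.2 CPM in GL261-GSCs. Its means differed 1.88-fold, the smallest gap among the genes that did not overlap.

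**Figure D1:**
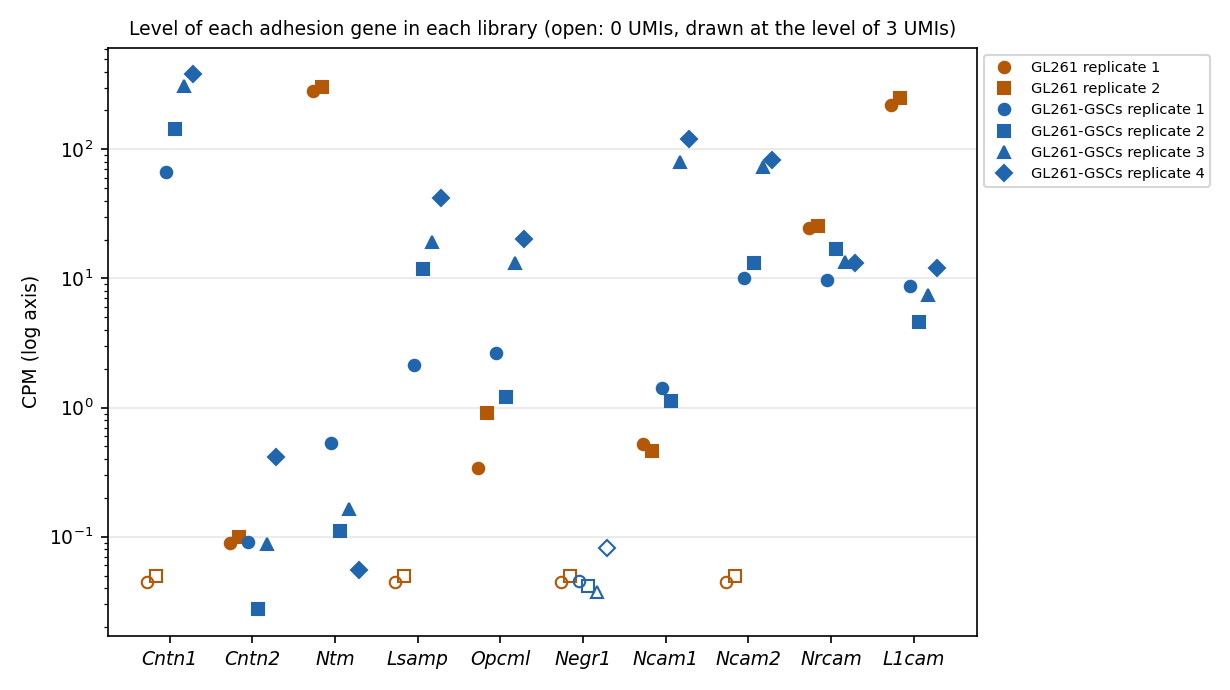
Level of each gene in each library in CPM on a log axis, with colours for the groups and symbols for the replicates, and open symbols for 0 UMIs drawn at the level of 3 UMIs. Cntn1, Lsamp and Ncam2 are open in GL261, Ntm stands at 285 and 303 CPM in GL261 and at 0.531 CPM or less in GL261-GSCs, and Ncam1 is split within GL261-GSCs between 1.41 CPM or less and 80.4 CPM or more.

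Counted together, 5 genes (Cntn1, Lsamp, Opcml, Ncam1 and Ncam2) lay above both GL261 libraries in every GL261-GSCs library and 3 (Ntm, Nrcam and L1cam) lay below. Over all genes, 29.9% of the 18433 tested were called between the groups with the edgeR quasi-likelihood test (15.8% higher, 14.1% lower). Of all called genes 53.0% were higher, or 63.2% with scaling by library size alone, and libraries did not overlap for 56.7% of the genes tested. The set was chosen on this contrast, so its genes have no test here and nothing is read from these counts. Cntn1, Lsamp and Ncam2 passed the filter on low counts through GL261-GSCs alone. The 5 genes that were higher in GL261-GSCs were also higher in both of replicates 3 and 4 than in both of 1 and 2, beside 32.4% of genes tested that were (63.6% in either direction). Median depth and Malat1 differed along the same division, as given above, and so did the neuron markers Syt1, a vesicle gene at 1.15, 12.4, 51.5 and 78.2 CPM in replicates 1 to 4, and, in the other direction, Tubb3, a tubulin at 45.8, 24.7, 4.15 and 4.45 CPM. Their part in it was not tested. Without replicates 3 and 4 the fitted log2 differences from GL261 were 1.64 for Opcml against 3.90 with all libraries, -9.86 for Ntm against -10.34 and -5.14 for L1cam against -4.84. In sums of this kind fewer cells with a transcript and less RNA per cell cannot be told apart.

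The share of cells in which each RNA was seen was counted as well. At a fixed depth such a share rises with the level itself and is not the fraction of cells that express the gene. It therefore does not tell fewer cells with a transcript from less RNA per cell. Each cell was thinned to 2000 UMIs, which every called cell reached. A Cntn1 UMI was then found in 13.1%, 25.1%, 46.4% and 54.9% of cells in GL261-GSCs replicates 1 to 4 (exact binomial intervals at 95%: 12.1 to 14.2%, 24.0 to 26.2%, 45.2 to 47.5% and 53.5 to 56.4%). Free RNA alone, estimated from barcodes holding 100 to 1000 UMIs, amounts to shares of 0.418%, 0.947%, 3.47% and 8.34%. In GL261, 0 of 4808 and 0 of 5002 cells had one, where 3 cells of the total would be 0.0624% and 0.06%. The exact intervals at 95% reach up to 0.0767% and 0.0737% there. Unthinned, a Cntn1 UMI was found in 49.0%, 69.2%, 86.9% and 84.6% of the GL261-GSCs cells, so the highest share moved from replicate 4 to replicate 3, which was deeper. Intervals and limits of this kind cover counting error only.

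Ntm was seen in 38.9% and 41.6% of GL261 cells and L1cam in 32.4% and 36.1% (unthinned 87.5% and 88.8% for Ntm, 81.3% and 84.1% for L1cam), where free RNA would give 1.46 to 1.65% for Ntm and 0.553 to 0.694% for L1cam. In GL261-GSCs L1cam stayed between 0.886% and 2.99% of cells, and Ntm was in 5, 1, 3 and 1 cells of replicates 1 to 4. Ncam1 was in 0.235%, 0.239%, 17.3% and 25.8% of GL261-GSCs cells, where free RNA would give 0.00765%, 0.00701%, 0.649% and 2.32%. Ncam2 was in 2.91%, 3.13%, 16.1% and 19.8% (free RNA 0.0714%, 0.104%, 1.12% and 1.94%). Lsamp was in 0.492%, 2.98%, 4.71% and 10.7% (free RNA at most 0.645%), and Opcml in 0.727%, 0.307%, 3.42% and 5.56% (at most 0.246%). Each of these shares was above that of free RNA in its library. The Nrcam shares were 4.89% and 4.92% in GL261 and 1.95 to 3.90% in GL261-GSCs, and free RNA would give at most 0.238% for Nrcam and, in GL261-GSCs, 0.278% for L1cam. Of the thinned cells, 16.0% and 18.4% in GL261 held UMIs of at least 2 of the genes, against 1.59%, 3.90%, 22.9% and 35.7% in GL261-GSCs replicates 1 to 4.

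**Figure D2:**
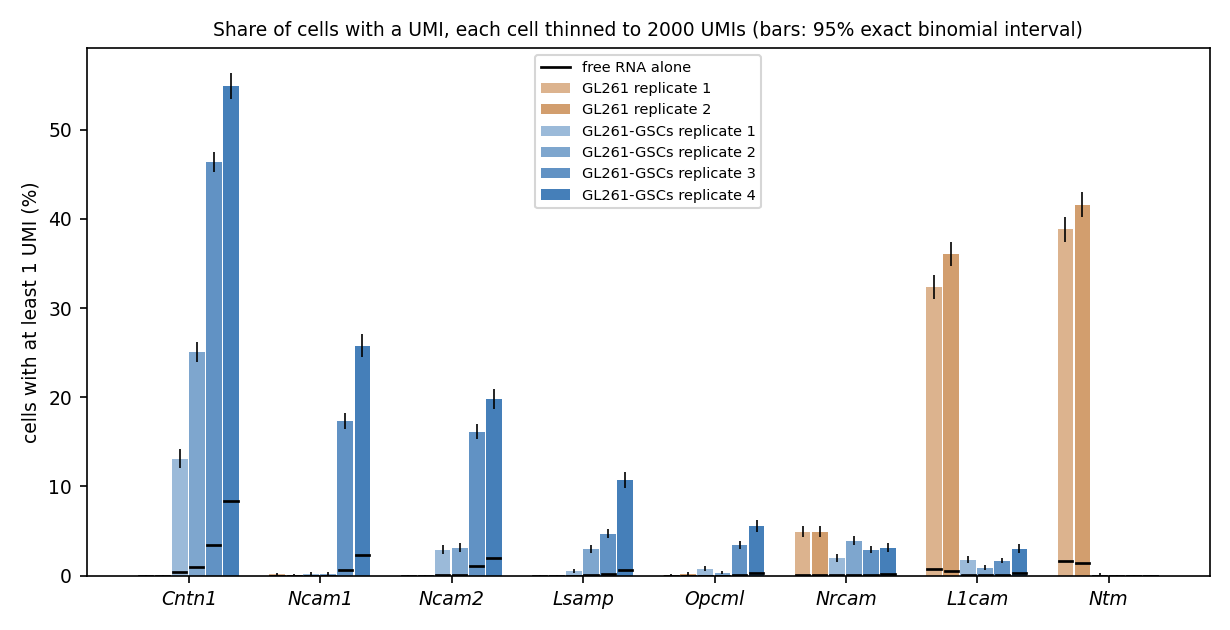
Percentage of cells with at least 1 UMI after thinning to 2000 UMIs per cell, by gene and library, with 95% exact binomial intervals, and the share that free RNA alone would give as a black line. Cntn1 lies between 13.1% and 54.9% of cells in the GL261-GSCs libraries, while Ntm and L1cam are seen in 32.4 to 41.6% of GL261 cells.

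Free RNA followed the cells for Cntn1, with 37.0, 96.3, 266 and 368 CPM in GL261-GSCs replicates 1 to 4. Ncam2 in free RNA of replicates 3 and 4 stood at 84.6 and 81.8 CPM, beside 73.0 and 82.4 CPM in the cells. For L1cam in GL261 it stood at 76.5 and 58.3 CPM, beside 220 and 251 CPM in the cells, and for Ntm at 183 and 155 CPM, beside 285 and 303 CPM.

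Among 5305 genes with an average log2 CPM of at least 5, the patterns most like Cntn1 over the 6 libraries were those of Hsd17b7, Hmgcs1, Arl4a, Magi1 and Snx25, with Pearson r of log2(CPM + 1) from 0.9989 to 0.9995. Hmgcs1, an enzyme of sterol synthesis, was at 30.9 and 32.7 CPM in GL261 and 253, 319, 447 and 516 CPM in GL261-GSCs replicates 1 to 4. The patterns most like Ntm were those of Actn4, Ly6c1, Nrp1, Klk8 and Nus1 (r from 0.9990 to 0.9995), and Nrp1 was at 113 CPM in both GL261 libraries and at 0.227 CPM or less in GL261-GSCs. These are descriptions over 6 libraries that share their groups, and 399 genes for Cntn1 and 430 for Ntm had an r over 0.95.

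Outside the set, 34 further immunoglobulin adhesion genes were listed, of which 21 were tested and 10 changed between GL261-GSCs and GL261 (edgeR quasi-likelihood test, Benjamini-Hochberg adjusted p under 0.05 over all genes). Over all genes tested 29.9% were called. Of the 10, 7 rose and 3 fell, and the median log2 fold change was 0.61 over the 21 and 0.04 over all genes tested. The list was drawn up with earlier results of these data known, so these values are no independent test of the family. The largest rises were in Cadm2 (5.99, SE 1.43, adjusted p = 0.0208), a synaptic adhesion gene at 0.326 and 0.729 CPM in GL261 and 4.76, 11.9, 34.8 and 82.7 CPM in GL261-GSCs, and in Mog (5.92, SE 0.74, adjusted p = 0.00178), a myelin surface protein. Sdk2 rose by 2.73 and Cntn6, a contactin, by 2.37 on the log2 scale. Jam2 and Alcam, adhesion genes also of endothelium and leukocytes, rose by 1.67 and 1.48. Kirrel fell by 3.04 (SE 0.29, adjusted p = 0.000657) and Cadm4, which holds glia to axons, by 2.0, while the fall of Nptn was 0.42. Jam3, at 0.96, was the remaining rise.

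The call depended on single libraries for some of these genes. Without GL261 replicate 1 the number called was 5, without GL261 replicate 2 it was 4, and without GL261-GSCs replicate 3 it was 6. Cadm2, Cntn6, Jam2, Alcam and Nptn each lost their call without either GL261 library, with adjusted p from 0.0988 to 0.278, and Jam3 lost it without GL261 replicate 2 (adjusted p = 0.0752). Cntn6 was also lost without GL261-GSCs replicate 3 and Jam2 without replicate 3 or 4, and Alcam and Nptn without any of replicates 2, 3 and 4 (adjusted p from 0.0505 to 0.0949 for replicates 3 and 4). Chl1, a further L1 family gene named here after its values were seen, was not called (log2 fold change -0.64, SE 0.59, adjusted p = 0.441). It was at 156 and 166 CPM in GL261 and at 44.0, 59.4, 91.5 and 218 CPM in GL261-GSCs, so the groups overlapped.

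The list of ligands, receptors, cytoskeletal anchors and proteases that work with these molecules held 35 genes. This list too was drawn up with earlier results of these data known. Of the 30 tested, 6 rose and 9 fell, beside 15.8% and 14.1% of all genes tested, with a median log2 fold change of -0.03. Ptprz1, the receptor phosphatase that binds contactin 1, rose by 11.77 (SE 0.96, adjusted p = 0.000370), from 0.133 and 0.0166 CPM in GL261 to 172, 151, 350 and 436 CPM in GL261-GSCs. The matrix ligands Tnr, which contactins bind, and Bcan rose by 6.37 and 3.82. Tnr held 4 UMIs in GL261 and stood at 1.44 to 5.53 CPM in GL261-GSCs, so its ratio rests on few counts. Fgfr1, a growth factor receptor that NCAM and L1 can activate, rose by 2.81, and Ank2, an ankyrin that anchors L1 family proteins, by 1.03. Sema3a, a repulsive guidance ligand, rose by 7.69 (adjusted p = 0.00225), while its receptor subunit Nrp1, which also binds L1cam, fell by 9.21 (SE 0.26, adjusted p = 1.84e-05).

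Gdnf, whose receptor Gfra1 can use NCAM, fell by 4.09 (SE 0.16), from 46.4 and 41.9 CPM in GL261 to 2.34 to 3.05 CPM in GL261-GSCs. Msn, an actin linker of L1, fell by 1.61, and Adam10, a protease that sheds L1cam, by 1.43. Itgb3, an integrin subunit that binds L1cam, fell by 1.95, and Cntnap4, a contactin associated protein with 38 UMIs in GL261 and 3 in GL261-GSCs, was also called lower. The remaining falls were those of Itgb1 (-1.33), Gfra1 (-1.15) and Cntnap1 (-0.69). St8sia2 and St8sia4, the enzymes that put polysialic acid on NCAM, had no UMI in the called cells, and neither did Gldn. Without GL261 replicate 1 the partner genes called numbered 9. Ank2, Itgb3, Cntnap4, Gfra1 and Cntnap1 lost their call without either GL261 library, with adjusted p from 0.0529 to 0.279, and Itgb1 lost it without replicate 1 (adjusted p = 0.0616). Ank2 also lost it without GL261-GSCs replicate 2 or 3, Itgb3 without replicate 2 or 4, and Cntnap1 without any single GL261-GSCs library (adjusted p from 0.0631 to 0.0933). Scaling by library size alone moved the median of all genes from 0.04 to 0.18 and called 10 and 15 genes of the lists, without Nptn and Cntnap1.

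**Figure D3:**
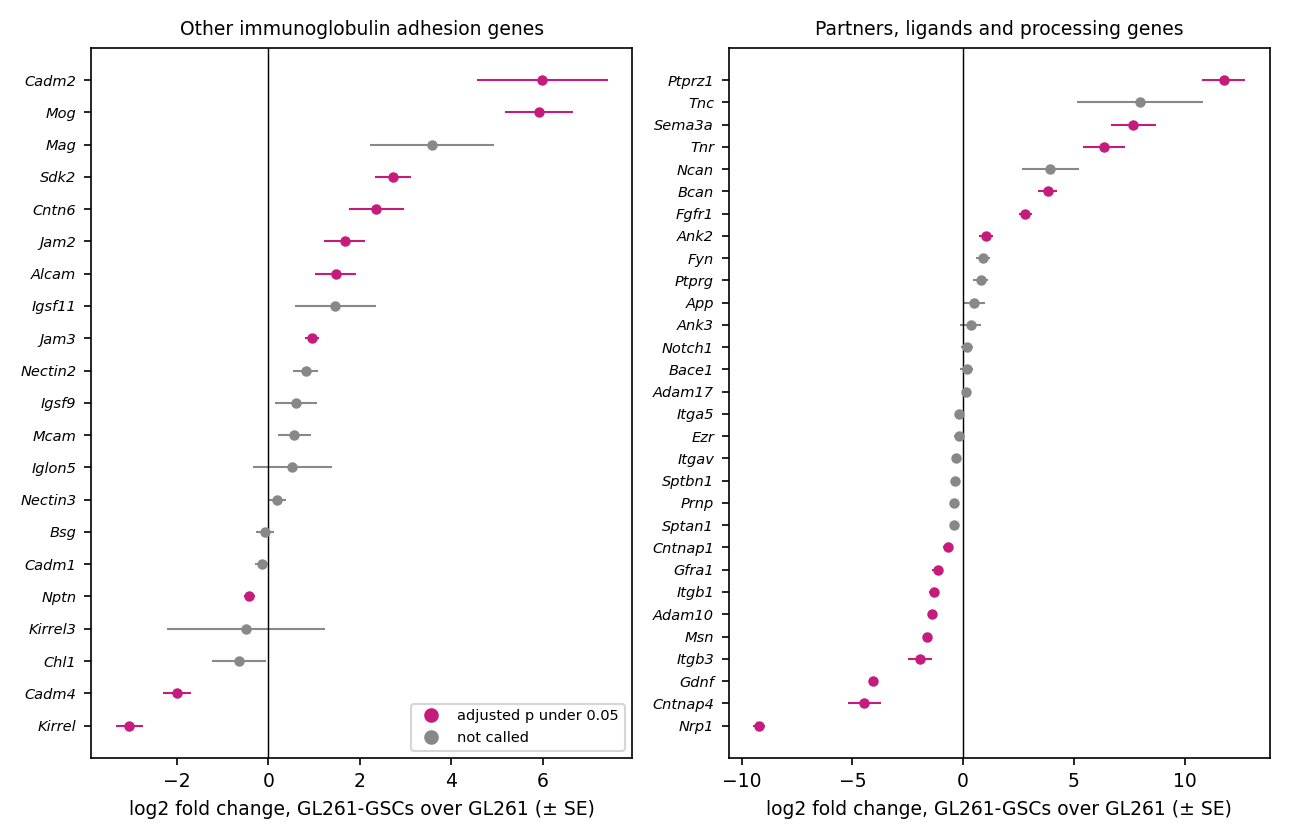
Log2 fold change, GL261-GSCs over GL261, with its SE, for each tested gene of the other immunoglobulin adhesion genes (left) and of the partners (right), coloured where the edgeR adjusted p was under 0.05. Cadm2 and Mog lie highest on the left at 5.99 and 5.92, and Ptprz1 (11.77) and Nrp1 (-9.21) lie at the ends on the right.

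Within the libraries, cells were also compared by how strongly they expressed genes of the G2 and M phases of cell division, a measure that played no part in choosing the genes. The upper class held cells at or above the 75th percentile of the summed UMIs of 18 such genes after thinning, and the lower class those at or below the median. In GL261-GSCs, of the 9 genes in this fit, 1 was higher and 2 were lower in the upper class, beside 37.7% of the 16192 genes tested that were called (17.8% higher). Ncam1 was higher in the upper class in 4 of 4 libraries, at 2.03 against 1.20, 2.04 against 0.632, 108 against 67.9 and 148 against 124 CPM (log2 ratio 0.57, SE 0.13, adjusted p = 0.00686, edgeR with library as a block). L1cam was lower in 4 of 4, at 7.97 against 9.82, 3.66 against 5.43, 6.75 against 8.36 and 12.03 against 14.7 CPM (-0.34, SE 0.06, adjusted p = 0.00282). Nrcam was also lower in 4 of 4, with log2 ratios from -0.60 to -0.05 (fitted -0.35, SE 0.09, adjusted p = 0.0112).

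Cntn1 was higher in the upper class in replicates 1 to 3 and lower in replicate 4, with a fitted log2 ratio of 0.07 (SE 0.08, adjusted p = 0.541), and it was called without replicate 4 (0.19, adjusted p = 0.00602). Lsamp (-0.19, adjusted p = 0.125), Ncam2 (0.07) and Opcml (0.00) were not called. In GL261, Cntn1, Lsamp and Ncam2 have no UMI in called cells and cannot be compared. Of the other 6 genes 0 were called, also with DESeq2, and 0 had an unadjusted p under 0.05, beside 16.5% of genes called (6.18% higher). Among them Cntn2 (2 against 8 UMIs), Ncam1 (10 against 40) and Opcml (26 against 34) held few UMIs, which limits what could be called. Ntm stood at 245 against 289 and 261 against 295 CPM there (-0.19, SE 0.14, adjusted p = 0.372), and L1cam at 220 against 214 and 234 against 236 CPM. Of the 6 genes with UMIs in both groups, the difference of the effect between the groups was called for 0 by edgeR and by DESeq2, with an unadjusted p under 0.05 for L1cam and Ncam1, beside 0.296% of genes called (0.173% higher). Cells of the upper class were deeper in every library, in GL261-GSCs with medians of 7552 to 16927 UMIs against 6937 to 14657. The classes are ranges of a score, not cell types, and 111 to 224 cells per GL261-GSCs library lay exactly at the upper limit. Without GL261-GSCs replicate 3 the adjusted p was 0.0897 for Ncam1 and 0.0750 for Nrcam, and with S phase genes in place of G2 and M genes 0 of the 9 were called.

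Of the other immunoglobulin genes 20 were in this fit, and in GL261-GSCs 5 were higher and 5 lower in the upper class, beside 37.7% of all genes called (17.8% higher), with a median log2 ratio of 0.04 against -0.03 over all genes. Higher were Igsf9 (1.79, in 3 of 4 libraries, from 46 against 22 UMIs), Mcam (0.40), Nectin3 (0.38), Jam2 (0.16) and Nptn (0.14). Lower in 4 of 4 libraries were the myelin genes Mag (-1.06) and Mog (-0.47), and Sdk2 (-0.74), Cntn6 (-0.68) and Jam3 (-0.20). Of 29 partners 6 were higher and 5 lower, a share near that of all genes, with a median of 0.01. Notch1, a receptor that contactin 1 can bind, was higher by 0.38, the protease Adam17 by 0.35 and Ptprz1 by 0.22, and Sptan1 (0.17), Sptbn1 (0.15) and, in 3 of 4 libraries, Itgb1 (0.13) were higher too. Gdnf (-0.96), its receptor Gfra1 (-0.48), Fgfr1 (-0.46), Itga5 (-0.28) and Fyn (-0.19) were lower in 4 of 4. In GL261, Mcam (0.57) and Notch1 (0.71) were higher, and Mog (-1.18), Fgfr1 (-0.72), Bcan (-0.55) and Fyn (-0.26) were lower, beside 16.5% of all genes called. Without GL261-GSCs replicate 3, 6 of the 10 immunoglobulin genes and 6 of the 11 partners kept their call in GL261-GSCs (Igsf9, Jam2, Jam3, Nptn, Adam17, Fyn, Itgb1, Ptprz1 and Sptbn1 lost it). DESeq2 kept 5 of the 10 and 9 of the 11 (not Igsf9, Jam2, Mag, Nptn, Sdk2, Itgb1 or Sptbn1). With S phase genes 2 of the 10 and 2 of the 11 kept their call, and with no replicate block 0 and 1 did. The fit with no replicate block drops the pairing of the classes within a library, so differences between libraries enter its error. In GL261 Mog, Bcan, Fgfr1 and Fyn lost theirs without either GL261 library, and Mcam without replicate 2.

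**Figure D4:**
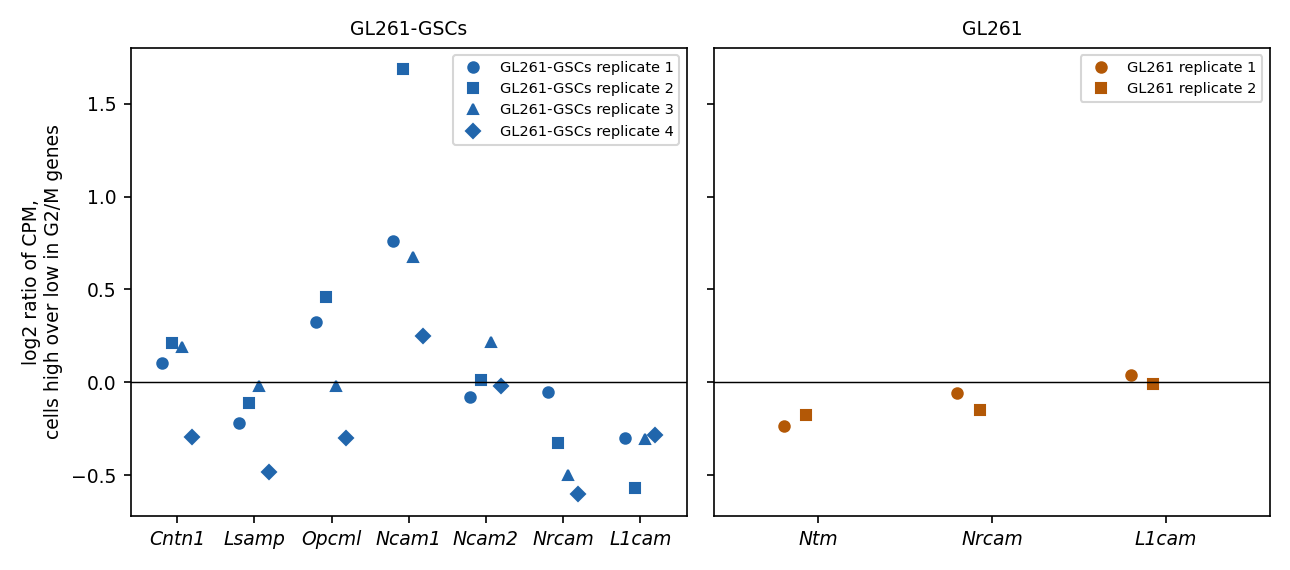
Log2 ratio of CPM between cells high and cells low in G2 and M phase genes for each library, in GL261-GSCs (left) and, for the 3 genes with enough UMIs, in GL261 (right). Ncam1 lies above 0 in all 4 GL261-GSCs libraries, Nrcam and L1cam lie below 0 in all 4, and the GL261 points of L1cam lie near 0.

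To see which of the genes occur in the same cells, GL261-GSCs cells with a Cntn1 UMI after thinning (559, 1473, 3375 and 2478 in replicates 1 to 4) were set against those without (3705, 4397, 3900 and 2034). Before thinning 2090, 4062, 6323 and 3818 cells held one, so many cells of the second class do hold Cntn1 RNA. The classes are not cells that express Cntn1 and cells that do not. Of the 6 genes in this fit, 4 were higher in cells with Cntn1, beside 32.9% of 13305 genes called (14.7% higher). Ncam2 was at 28.6 against 13.2, 23.8 against 13.5, 125 against 68.3 and 147 against 84.6 CPM (log2 ratio 0.73, SE 0.08, adjusted p = 1.54e-12, edgeR with library as a block). Lsamp was higher in replicates 2 to 4 (0.73, SE 0.10, adjusted p = 5.61e-09), while replicate 1 was at 2.68 against 2.56 CPM, a log2 ratio of -0.07 after TMM scaling. Ncam1 was higher in 3 of 4 (0.60, SE 0.08, adjusted p = 6.22e-09), with no UMI among the Cntn1 cells of replicate 1, and DESeq2 did not call it (adjusted p = 0.568). Opcml was higher in 4 of 4 (0.51, SE 0.14, adjusted p = 0.00195), but not called by DESeq2 (adjusted p = 0.0724) or without replicate 3 (adjusted p = 0.0897), nor in cells low in G2 and M genes (adjusted p = 0.179) or split without thinning (adjusted p = 0.193). Nrcam (0.03, adjusted p = 0.889) and L1cam (0.18, adjusted p = 0.425) were not called.

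Cells with Cntn1 were shallower, with median UMIs of 13821 against 15633, 10750 against 12259, 8901 against 11831 and 5407 against 8145, and they held more Malat1 (log2 ratio 0.40, adjusted p = 6.23e-09). In cells deeper than the median of their library, a comparison chosen after seeing the data, 3.0% of 11291 genes were called (1.44% higher). There Ncam2 was still higher (0.48, SE 0.11, adjusted p = 0.00315), as was Ncam1 (0.36, SE 0.11, adjusted p = 0.0331), while Lsamp (0.47, adjusted p = 0.106) and Opcml (0.59, adjusted p = 0.173) were not called. The part of free RNA in this split was not tested.

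Of 18 further immunoglobulin genes tested, 7 were higher and 1 was lower, and of 27 partners 15 were higher and 0 lower, beside 32.9% of all genes called (14.7% higher), with medians of 0.28 and 0.32 against 0.01 over all genes. Chl1 had the largest rise among abundant genes (0.95, SE 0.07), at 88.6 against 46.0, 103 against 65.3, 185 against 77.6 and 448 against 191 CPM, and Cadm2 rose by 0.94. Cadm4 (0.43), Alcam (0.38), Mcam (0.36), Cadm1 (0.32) and Jam3 (0.26) were also higher, and Bsg was lower (-0.16). The partners that were higher were Ptprz1 (0.54), Itgav (0.58), Notch1 (0.41), Itgb1 (0.39), Bcan (0.38), Ank2 (0.38), App (0.35), Sptbn1 (0.34), Adam10 (0.33), Sptan1 (0.32), Adam17 (0.25) and Fyn (0.16) in 4 of 4 libraries. Tnr (0.82, from 69 and 77 UMIs) and Ptprg (0.50) were higher in 3 of 4 and Ncan (0.59) in 2 of 4 after TMM scaling. DESeq2 did not call Tnr, Ptprg, Ncan, Adam17 or Fyn. Single libraries ended the call of Ptprg (replicate 1), Tnr (replicate 2), Bsg, Jam3, Adam17 and Fyn (replicate 3, and for Bsg and Fyn replicate 4 too). Split without thinning, 4 of the 8 immunoglobulin genes kept their call (not Alcam, Bsg, Jam3 or Mcam). Of the 15 partners 9 kept it there (not Adam10, Adam17, Ank2, Itgb1, Sptbn1 or Tnr). Cells low in G2 and M genes ended the calls of Bsg, Jam3 and Adam17. With no replicate block, a fit that drops the pairing within libraries, 0 genes of these lists were called. In the deeper cells 3 of 16 and 4 of 24 genes of these lists were called, all higher, beside 3.0% of all genes.

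Among called genes with an average log2 CPM of at least 7 that moved in 1 direction in every library, the largest rises after Chl1 were in the fibrillar collagens Col11a2 (0.91), Col2a1 (0.73) and Col11a1 (0.68), the growth factor receptor of oligodendrocyte precursors Pdgfra (0.67), Serinc5, Col3a1 and Rev3l. The largest falls among them were in Mt3, a metallothionein (-1.26, SE 0.07), S100a6 (-0.86), Cryab, a small heat shock protein (-0.84), Lgals3, S100a10, Cst6, Hmga1 and Dph3. Of the other oligodendrocyte precursor markers, the surface proteoglycan Cspg4 was higher in 4 of 4 libraries (0.49, adjusted p = 1.39e-10; 0.23, adjusted p = 0.0637 in the deeper cells). The transcription factors Olig1 (-0.10, adjusted p = 0.123), Olig2 (-0.06, adjusted p = 0.428) and Sox10 (0.00, adjusted p = 0.976) were not called.

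**Figure D5:**
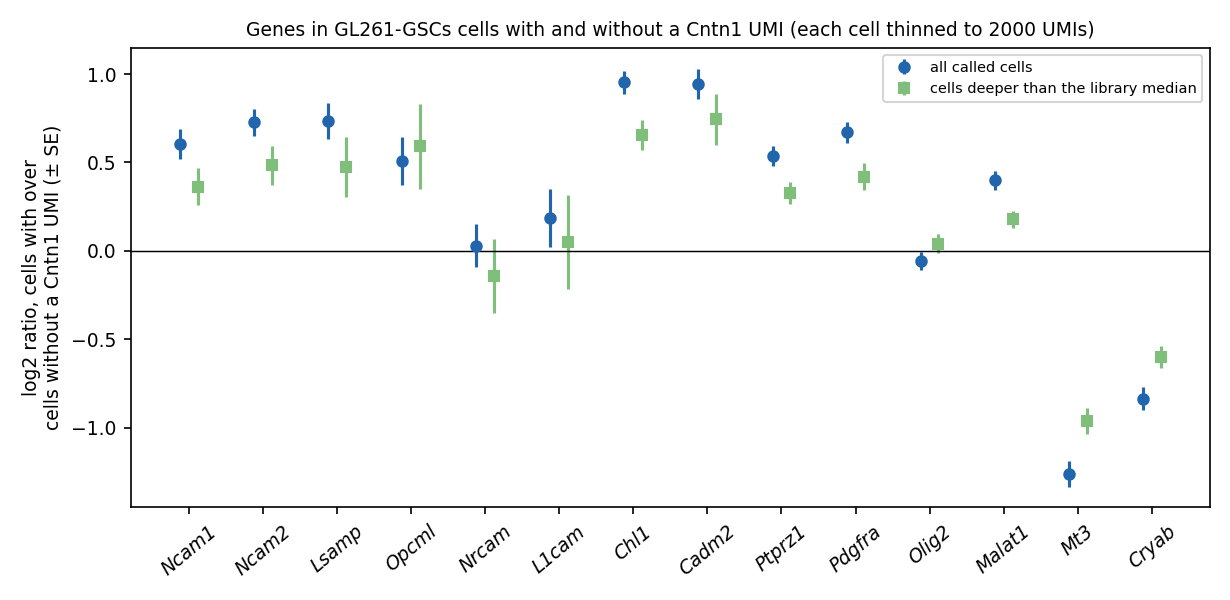
Log2 ratio with SE between GL261-GSCs cells with and without a Cntn1 UMI after thinning, for all called cells and for cells deeper than the median of their library. Ncam2 lies at 0.73 and 0.48, Chl1 at 0.95 and 0.65, Nrcam and L1cam lie near 0, and Mt3 lies at -1.26 and -0.96.

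The same split by Ntm in GL261 (1868 and 2081 cells with an Ntm UMI against 2940 and 2921 without) gave fewer calls, 1.52% of 11612 genes (0.491% higher), from 2 libraries. Before thinning 4207 and 4442 cells held an Ntm UMI, so most cells without one after thinning do hold Ntm RNA. Nrcam (0.16, adjusted p = 0.741) and L1cam (0.14, adjusted p = 0.115) were the members in this fit, and 0 were called by edgeR or DESeq2, with an unadjusted p under 0.05 for L1cam. L1cam was at 246 against 202 and 263 against 248 CPM. Of the listed genes Chl1 (0.23, adjusted p = 0.00578), Adam10 (0.20, adjusted p = 0.0118) and App (0.13, adjusted p = 0.0286) were higher. Malat1 was higher as well (0.19, adjusted p = 4.1e-07, in 2 of 2 libraries), and its part in the split was not tested. The largest rises among abundant genes were in Cdh6 (0.31), Mest (0.29), Col11a1 (0.28), Col2a1 (0.27), Itga6, Syt4, Col6a1 and Sox6, and the largest falls in Sqstm1 (-0.33), Esd (-0.32), Lars2, Hnrnpa1, Ppp1r2, Odc1, Ppp1r11 and Psma6. DESeq2 called 0 genes in this split, and in cells deeper than the library median 1 gene, Mest, was called.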

How the data were processed

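The authors deposited UMI counts per gene and barcode for 6 libraries, unfiltered. Per the file headers Cell Ranger 4 made them, and per the submitters' processing notes the build was mm10; the sources used here give no annotation release. Barcodes were called cells if they held 10% or more of a reference depth (among the 3000 barcodes with most UMIs, the 99th percentile), at least 500 genes and under 10% mitochondrial UMIs. Whether cells or nuclei were loaded is not settled by the labels. Doublets were not removed. UMIs were summed over called cells per library, or per library and cell class, and tested with edgeR 4.0.16 (R 4.3.3; glmQLFit and glmQLFTest, TMM, filterByExpr, Benjamini-Hochberg over all genes tested, 2-sided), which was tested on simulated data. Groups and replicate numbers came from the sample titles. CPM of libraries used TMM-scaled sizes, and CPM of cell classes and free RNA their own UMI totals. TMM entered the fitted ratios, and counts are not divided by gene length, so levels are not compared between genes. SEs of log2 fold changes were taken from the root of the F statistic. A gene at 0 UMIs in a group has a bound against 3 UMIs over that group.

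Cells were thinned to 2000 UMIs without replacement (seed 1) for shares, G2/M scores and the Cntn1 and Ntm splits. Shares have exact binomial (Clopper-Pearson) intervals at 95% (scipy 1.17.1). Coordinates are from GENCODE M21 (GRCm38) by identifier, with 54409 of 54446 identifiers matched. Alternatives were DESeq2 size factors, library size scaling, no low-count filter, DESeq2 1.42.0, limma-voom (limma 3.58.1), a replicate block, other cell calling and thinning, and leaving out libraries.

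The genes and gene lists were chosen with earlier results of these data known. Genes named are the 10 of the set, the 6 largest rises and falls called without overlap in each list, in the splits the called list genes and the 8 largest rises and falls whose average log2 CPM reaches 7 and that have 1 direction in every library, and the 5 most similar genes in the likeness comparison; exceptions are marked. Members are described without a test between the groups.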

Additional observations from a re-analysis of the deposited data

Results flagged for a closer look

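Cntn2 in GL261-GSCs replicate 4 stood far from the other 3 GL261-GSCs libraries, at 0.412 CPM (15 UMIs) against 0.0276 to 0.0910 CPM. Its share of thinned cells with a UMI was 0.0887% there (4 of 4512 cells), with 0 cells in the other 3 libraries. The limit used for such gaps is the 95% one and 39 groups of values were looked at, so chance alone gives some. GL261-GSCs replicate 4 is also the shallowest library, at a median of 6670 UMIs per cell. The effect of the G2/M classes on Gdnf differed between the groups: the log2 ratio was -0.96 in GL261-GSCs and the difference, GL261-GSCs minus GL261, was -1.14 (adjusted p = 0.0358, edgeR interaction term), lower in the upper class in 4 of 4 GL261-GSCs libraries. Leaving out GL261-GSCs replicate 1, 2 or 3 ended that call (adjusted p from 0.0567 to 0.131), as did S phase genes (adjusted p = 0.385). Without GL261 replicate 1 or 2 the difference was -1.10 or -1.17 and was not called. The fit with no replicate block did not call it either, but that fit drops the pairing of the classes within a library. Of all genes 48 were called for this difference, 2 when either GL261 library was dropped and 5 when GL261-GSCs replicate 3 was.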

How the results depend on the processing

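Ntm, L1cam and Nrcam stayed lower in GL261-GSCs, and Opcml and Ncam1 higher, under every alternative run. These genes were chosen on this contrast and their libraries do not overlap between the groups. Leaving out a library could therefore hardly reverse a direction, and nothing is read from this. Genes called between the groups, 5514, ranged from 1816 to 6192 when 1 library was left out, with 1978 without GL261 replicate 1 and the lowest without replicate 2, where the lone GL261 library is assumed to vary like the rest, and reached 9879 without GL261-GSCs replicates 1 and 2. Called genes of the other immunoglobulin list ranged from 4 to 12 and partners from 9 to 16 over libraries left out. Library size scaling called 5525 genes, 3491 of them higher against 2920, and limma-voom 2665 higher of 5444. Replicate numbers are shared by the groups, and deviations of same-numbered libraries correlated at -0.09 and 0.13. With 2 GL261 libraries their deviations are mirror images, so each correlation recurs with the opposite sign. These correlations therefore cannot decide whether same-numbered libraries share more than a number. With the replicate block 6512 genes were called, and the differences of Opcml and Ncam1 were 1.61 and 1.36, against 3.90 and 6.68. Replicate numbers 3 and 4 occur only in GL261-GSCs, so in that fit these libraries add nothing to the group difference. It therefore amounts to leaving them out and is not a separate adjustment.

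The 6106 genes of the G2/M classes in GL261-GSCs became 2043 with S phase genes and 635 with no replicate block, and ranged from 3865 to 5892 over libraries left out. The 3 called members became 0 and 0 under the first alternatives and ranged from 1 to 4, and Ncam1 turned to -0.18 with S phase genes. The 2671 genes of GL261 became 30 with S phase genes, 109 with no replicate block, 1449 with DESeq2, and 231 and 338 without either GL261 library. The 4375 genes of the Cntn1 split became 1166 unthinned, 2527 in cells low in G2/M genes, 339 in deeper cells, 2374 with DESeq2 and 0 with no replicate block, and 2820 to 4314 over libraries left out. Its 4 members became 2, 0 and 2 in deeper cells, with no replicate block and with DESeq2, and 3 to 4 over libraries left out. The 177 genes of the Ntm split became 860 unthinned, 13 in cells low in G2/M genes, 1 in deeper cells, 0 with DESeq2 and 0 with no replicate block. Leaving out a library could not be fitted there, as no residual degrees of freedom remain. The fits of cell classes with no replicate block drop the pairing of the classes within a library, so differences between libraries enter their error. For these splits the cause was not tested. The difference of Cntn2 shares, near 0, turned to -0.0145 points at 1000 UMIs, and ranged from -0.0200 to 0.0222 points when 1 library was left out (-0.0178 without GL261 replicate 1, the lowest without GL261-GSCs replicate 4). Unthinned, the Cntn1 share difference was 72.4 points against 34.9. At this depth Negr1 had 0 UMIs, Cntn2 2 to 15 per library and Ntm 2 to 35 per GL261-GSCs library, which limits what can be compared for them.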
